A study of Rattus norvegicus with 6 samples.

Results

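The genes described here are 46 genes of the extracellular matrix, of transforming growth factor beta (TGF-beta) signalling and of fibroblasts, followed in cultured heart muscle cells of newborn rats after knockdown of uc.323. They were a list of named genes, matched to array probes through the probe's RefSeq accession and read on the brightest probe of each gene. Of the 46 genes, 41 had a matched probe, among 15168 genes named on the array. Col5a2, Col4a2, Col6a1, Lox and Fbln2 had no probe matched by name and were not analysed here. Smad3, Mmp3 and Thy1 were not above background on all arrays of either group, which left 38 genes for testing. All 38 were above background on all 6 arrays.

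Primary ventricular myocytes of male Sprague-Dawley rats aged 1 to 2 days were given an siRNA against uc.323 (si-uc.323) or a scrambled siRNA (si-scramble), each at 50 nmol/L. Both groups were cultured for 36 h beforehand, held in serum-free medium with the siRNA for 3 h, starved of serum for 21 h more and collected 24 h after transfection. There were 3 independent experiments per group, with 1 array from each. Whether hearts were pooled or litters shared is not stated, so the p-values cover the spread between these arrays, which may be technical in part. uc.323 is an ultraconserved stretch of genome that is transcribed into non-coding RNA, and the comparison addressed genes downstream of it in the enlargement of heart muscle cells. Its own level was not analysed here, so the knockdown was not checked. The siRNA is shown because all values below rest on it. The labels give its bases without saying which strand they are, followed by a dTdT overhang.
si-uc.323, 5′ to 3′: gguaaguaauuucagcaau

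The extracellular matrix of the heart is made mainly by fibroblasts and consists of collagen fibrils, elastic fibres, basement membrane and proteoglycans. TGF-beta is secreted in a latent form, bound to latent TGF-beta binding proteins in the matrix. After release it acts through a pair of kinase receptors that phosphorylate SMAD transcription factors, whose targets include collagens and matricellular proteins, the matrix proteins that signal to cells rather than bear load. Matrix is removed by matrix metalloproteinases, which are held back by tissue inhibitors of metalloproteinases. The cultures had been preplated to remove fibroblasts and were grown with bromodeoxyuridine, which limits the growth of dividing cells, so a residue of fibroblasts was possible.

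Between 71.8% and 86.4% of the probes of an array were above background, and the share was highest on si-uc.323 replicates 2 (78.2%) and 3 (86.4%). By the scan identifier in the file headers, si-uc.323 replicate 1 and all si-scramble arrays were alike, and they are called slide 1. The identifiers of si-uc.323 replicates 2 and 3 differed from it, and these 2 arrays are called slide 2. The identifier stands in for the slide here, and whether these 2 arrays shared one was not checked. Slide in this sense and group overlapped in part. The arrays correlated with each other at 0.981 to 0.992 over all probes. Of 11579 named genes, 377 were higher and 334 lower with si-uc.323 at an adjusted p under 0.05, which is 3.26% and 2.88% of them. Over all features, unnamed probes included, 5.63% passed in either direction. The split was 279 higher and 503 lower with a median shift of the arrays, and 403 higher and 579 lower after quantile normalization. With the median shift the typical named gene read -0.08 (log2, median), against 0.02 in the values reported here, and the listed genes had a median of 0.09.

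Of the 38 genes tested, 7 rose with si-uc.323 and none fell (limma with Benjamini-Hochberg adjustment over all features). The 7 were Ccn2, Postn, Tnc and Thbs2, which encode matricellular proteins, Col5a1, a chain of type V collagen, Ltbp1, a latent TGF-beta binding protein, and Fap, a protease on the surface of activated fibroblasts. They made up 18.4% of the genes tested, beside the 3.26% of all named genes that rose and the 5.63% of all features that changed either way. At an unadjusted p under 0.05, 12 of the 38 were higher and 2 were lower, beside 5574 of all 19916 features in either direction (limma). The groups did not overlap in 14 genes that were higher with si-uc.323 (36.8%) and 3 that were lower (7.89%), beside 20.1% and 19.0% of all named genes. The median log2 fold change was 0.20 over the 38 genes and 0.02 over all named genes. It was 0.25, 0.13 and 0.30 when si-uc.323 replicates 1, 2 and 3 were each set against the mean of the si-scramble arrays. Since the array sees bulk RNA, more cells of a type and more RNA per cell cannot be told apart in any of these values.

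The 7 calls depended on which arrays were used. None of the 7 passed without si-scramble replicate 1, 2 or 3, while 3 passed without si-uc.323 replicate 1, 7 without si-uc.323 replicate 2 and 2 (Ltbp1 and Ccn2) without si-uc.323 replicate 3. Without si-uc.323 replicate 2 a further 4 passed as higher (Col3a1, Tgfb3, Fbn1 and Smad2), 11 in all. Among the 4 arrays of slide 1, si-uc.323 is represented by replicate 1 alone and is taken to vary as si-scramble does. The log2 fold changes of the 7 genes ran from 0.63 (Ccn2) to 1.13 (Col5a1) on these arrays. None of the 7 passed with the slide as a block (lowest adjusted p = 0.169, limma). All 7 log2 fold changes were positive in each of these fits. This was given in advance, since every si-uc.323 array lay above every si-scramble array in these genes.

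**Figure D1:**
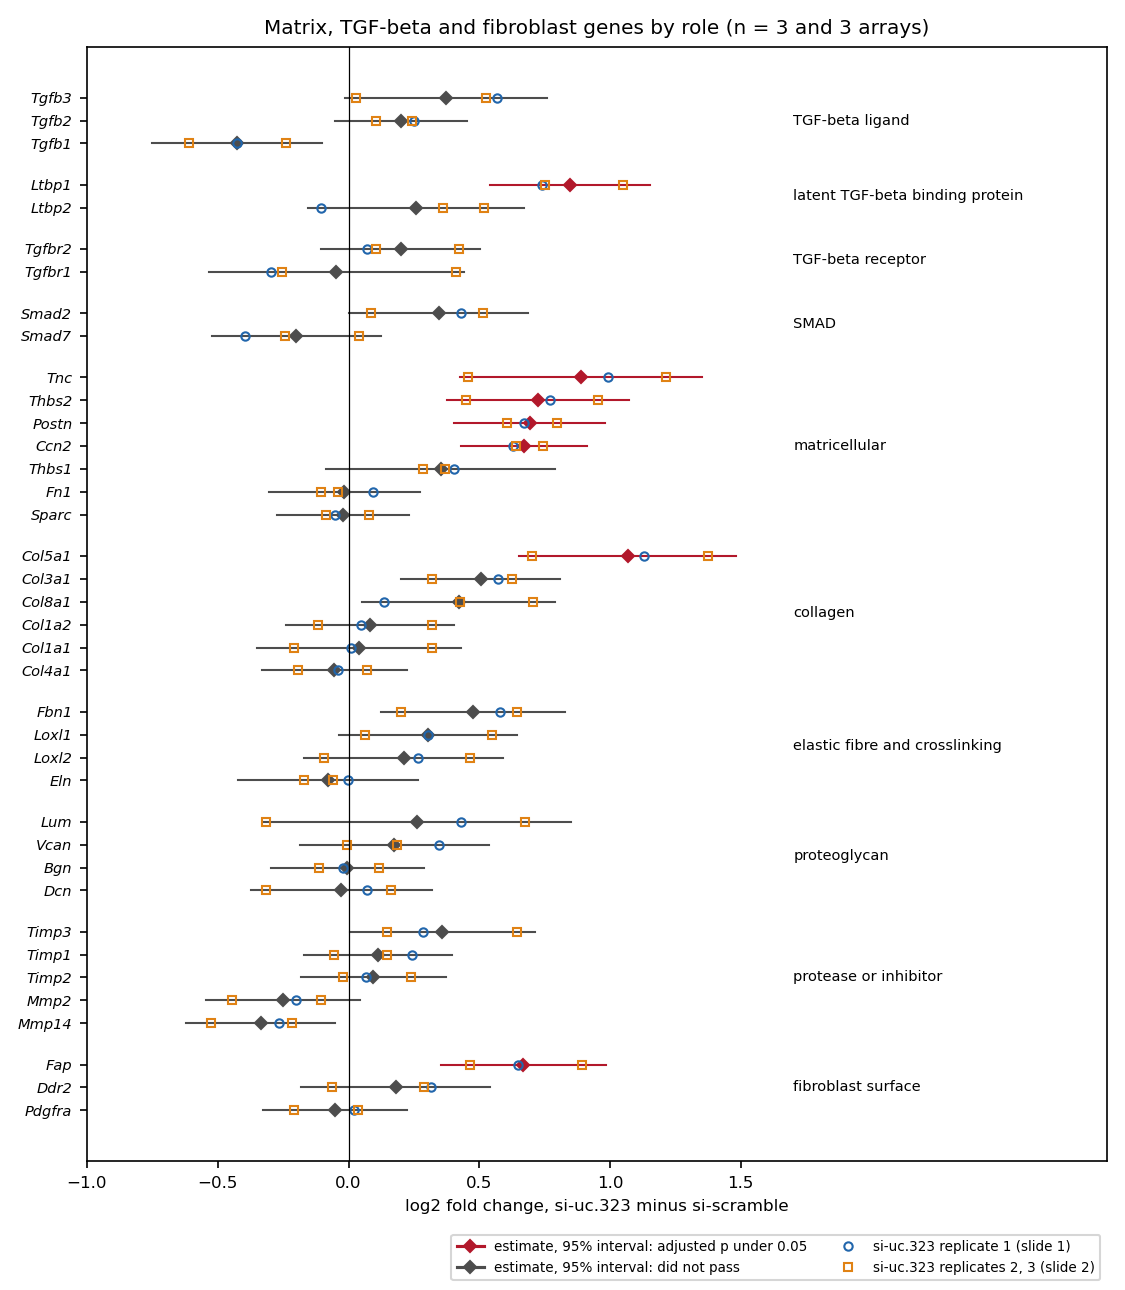
Log2 fold change of the 38 genes tested, si-uc.323 minus si-scramble, by role (n = 3 and 3 arrays). Diamonds and lines are the estimate and its unadjusted 95% interval, and open symbols are each si-uc.323 array minus the mean of the si-scramble arrays, with slide 1 as circles and slide 2 as squares. The 7 genes that rose are in red, between 0.67 (Fap) and 1.07 (Col5a1), and each of their 3 arrays lies above 0.

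Matricellular proteins held 4 of the 7 genes that rose. Of 7 tested in a group of matricellular proteins and TGF-beta targets, Ccn2, Postn, Tnc and Thbs2 rose and Thbs1 did not pass. The 4 are 57.1% of the 7, beside the 3.26% of all named genes that rose, a description of few genes. Fn1 and Sparc of that group lay near 0. Levels are given as log2 intensity over the 75th percentile of the array, so that 0 is the brightness of the spot at that percentile. Ccn2, the connective tissue growth factor and a widely used target gene of TGF-beta and of mechanical signalling, had levels of 4.28, 4.29 and 4.40 on the si-uc.323 arrays, against 3.64, 3.68 and 3.63 on the si-scramble arrays. The groups lay far apart relative to their spread, with means of 4.32 ± 0.06 and 3.65 ± 0.03 (SD, n = 3 each). Ccn2 was 1.59-fold higher with si-uc.323 (log2 fold change 0.67 ± 0.10, SE; adjusted p = 0.0253, limma).

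Postn, periostin, which fibroblasts secrete in developing and injured heart, read 1.08, 1.02 and 1.21 on the si-uc.323 arrays and 0.41, 0.56 and 0.26 on the si-scramble arrays. All si-uc.323 values were above all si-scramble values, and the gene was 1.62-fold higher (log2 fold change 0.69 ± 0.12, SE; adjusted p = 0.0312, limma). Tnc, tenascin-C, which is known from matrix under repair, had levels of -2.52, -3.05 and -2.29 with si-uc.323, against -3.43, -3.55 and -3.55 with si-scramble. Replicate 2 was the lowest si-uc.323 array for Tnc and still lay above every si-scramble array. Tnc was 1.85-fold higher (log2 fold change 0.89 ± 0.20, SE; adjusted p = 0.0484, limma), the call closest to the threshold among the 7. Thbs2, thrombospondin-2, a matrix glycoprotein that takes part in collagen fibril assembly, read -0.998, -1.32 and -0.81 on the si-uc.323 arrays and -1.80, -1.73 and -1.77 on the si-scramble arrays, a 1.65-fold rise (adjusted p = 0.0412, limma).

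The related Thbs1, thrombospondin-1, an activator of latent TGF-beta, had levels of -3.30, -3.42 and -3.33 with si-uc.323 and of -3.99, -3.29 and -3.82 with si-scramble. Its groups overlapped because of si-scramble replicate 2, and it did not pass (log2 fold change 0.35, adjusted p = 0.262, limma). Fn1, fibronectin, had a log2 fold change of -0.02 with an unadjusted 95% interval of -0.31 to 0.27. Sparc, a collagen-binding glycoprotein, also read -0.02, with an interval of -0.27 to 0.23. These intervals do not reach the estimates of the 4 matricellular genes that rose. On si-uc.323 replicate 1 alone, which shared its scan identifier with the si-scramble arrays, the differences from the si-scramble mean were 0.63 for Ccn2, 0.67 for Postn, 0.99 for Tnc and 0.77 for Thbs2. With normexp background correction, Tnc (0.58, adjusted p = 0.0585) and Thbs2 (0.54, adjusted p = 0.0507) did not pass.

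**Figure D2:**
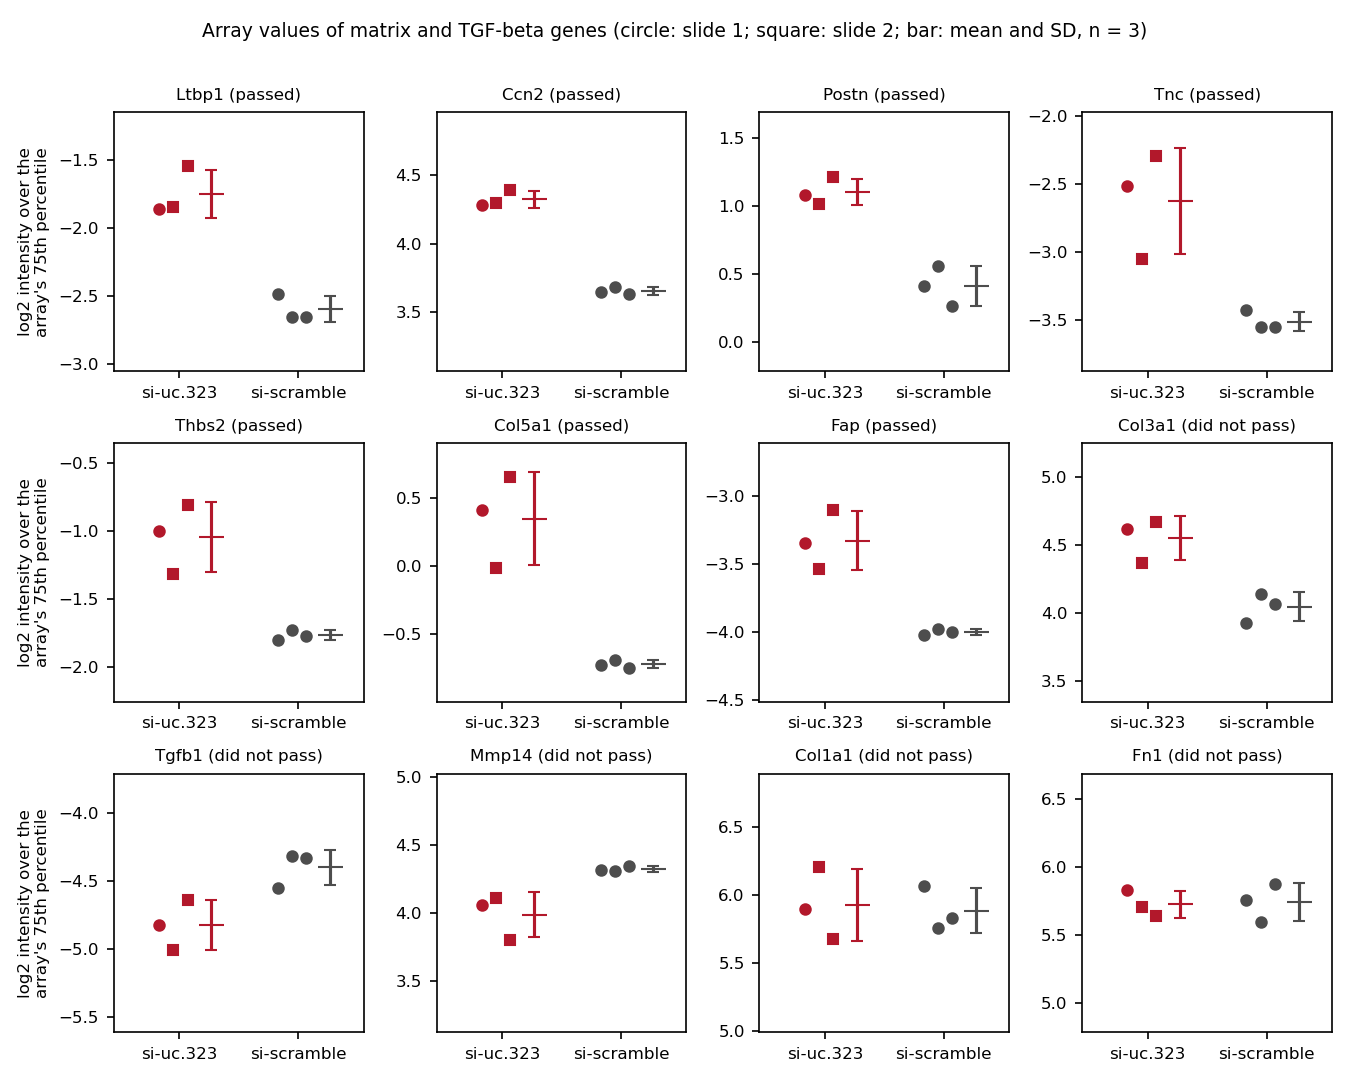
Levels of 12 genes on each array, as log2 intensity over the array's 75th percentile, with si-uc.323 left of si-scramble. Circles are arrays of slide 1, squares are arrays of slide 2, and bars are the mean and SD (n = 3). In the panels of the 7 genes that passed no si-uc.323 array reaches down to a si-scramble array, while the groups overlap for Col1a1 and Fn1.

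The start regions of 4 genes that rose are shown to place the rises beside the sequence from which these genes are transcribed. RefSeq sequences of build GRCr8, from 250 bases before to 50 bases after the start, were found for 33 of the 46 genes, 6 of them among the 7 that rose (none for Thbs2). Motifs were searched on both strands: CAGAC, bound by SMAD proteins, GGAATG, bound by TEAD factors, and TGANTCA, bound by AP-1. Capitals mark the matches, and no base lay in matches of more than 1 motif.
Ccn2, chr1:22624565-22624864, minus strand: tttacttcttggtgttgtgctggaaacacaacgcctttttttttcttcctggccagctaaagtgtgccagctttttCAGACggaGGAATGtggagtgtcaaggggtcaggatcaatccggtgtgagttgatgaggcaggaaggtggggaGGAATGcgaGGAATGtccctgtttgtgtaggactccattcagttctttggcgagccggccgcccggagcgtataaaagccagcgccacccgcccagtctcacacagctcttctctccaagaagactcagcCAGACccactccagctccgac
Postn, chr2:140677811-140678110, plus strand: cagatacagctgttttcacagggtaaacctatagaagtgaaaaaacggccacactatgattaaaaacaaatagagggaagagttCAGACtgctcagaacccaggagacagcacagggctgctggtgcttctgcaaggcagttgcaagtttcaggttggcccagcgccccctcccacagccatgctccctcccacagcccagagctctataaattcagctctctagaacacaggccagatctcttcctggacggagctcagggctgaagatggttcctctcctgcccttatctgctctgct
Tnc, chr5:82476082-82476381, minus strand: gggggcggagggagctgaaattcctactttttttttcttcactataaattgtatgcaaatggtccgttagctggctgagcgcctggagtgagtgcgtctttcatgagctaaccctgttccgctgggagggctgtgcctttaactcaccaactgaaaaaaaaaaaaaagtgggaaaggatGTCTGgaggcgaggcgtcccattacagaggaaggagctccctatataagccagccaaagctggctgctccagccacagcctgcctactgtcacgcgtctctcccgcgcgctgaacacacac
Col5a1, chr3:31606630-31606929, plus strand: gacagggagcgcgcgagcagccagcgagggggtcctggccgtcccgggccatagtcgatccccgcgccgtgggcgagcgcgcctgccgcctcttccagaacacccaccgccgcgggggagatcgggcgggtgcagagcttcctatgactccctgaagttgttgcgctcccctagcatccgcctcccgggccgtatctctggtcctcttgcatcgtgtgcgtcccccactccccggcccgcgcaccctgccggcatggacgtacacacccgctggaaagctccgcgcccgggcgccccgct

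The window of Ccn2 held 2 matches to CAGAC and 3 to GGAATG, the windows of Postn and Tnc held 1 match each to CAGAC, and that of Col5a1 held none of the 3 motifs. CAGAC occurred in 5 of the 6 windows of genes that rose, in 8 of 21 windows of genes tested that did not pass, and in 50.1% of all 33469 windows of this length. GGAATG occurred in 1 of the 6, in 4 of the 21 and in 14.2% of all windows. TGANTCA occurred in none of the 6, in 1 of the 21 and in 7.33% of all windows. A short motif in a window is a description of its letters and not a binding site.

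Among the collagens, 1 of 6 genes tested rose (16.7%, beside 3.26% of all named genes) and none fell. Col5a1, the alpha 1 chain of type V collagen, which starts and limits the width of collagen fibrils, had the largest log2 fold change of the 38 genes. It read 0.41, -0.02 and 0.65 on the si-uc.323 arrays and -0.72, -0.69 and -0.75 on the si-scramble arrays. The si-scramble values lay close together while the si-uc.323 values were spread, with SDs of 0.34 for si-uc.323 and 0.03 for si-scramble, and no values overlapped. Col5a1 was 2.10-fold higher with si-uc.323 (log2 fold change 1.07 ± 0.18, SE; adjusted p = 0.0276, limma).

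Col3a1, the chain of type III collagen, had levels of 4.62, 4.37 and 4.67 with si-uc.323, against 3.93, 4.14 and 4.07 with si-scramble. Its groups did not overlap, but it did not pass over all features (log2 fold change 0.50 ± 0.13, SE; adjusted p = 0.0638, limma), and it passed with normexp background correction (0.55, adjusted p = 0.0289). Col8a1, a network-forming collagen of vessel walls, read -1.95, -1.66 and -1.38 with si-uc.323 and -2.09, -2.11 and -2.07 with si-scramble, and did not pass (0.42, adjusted p = 0.138). The chains of type I collagen, the main fibrillar collagen of the heart, lay near 0. Col1a1 had a log2 fold change of 0.04 (unadjusted 95% interval -0.35 to 0.43) and Col1a2 one of 0.08 (-0.24 to 0.40). Both read highest on si-uc.323 replicate 2 among all 6 arrays, at 6.21 and 5.82. Col4a1, a chain of basement membrane collagen, had a log2 fold change of -0.05 (-0.33 to 0.22).

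No gene of elastic fibres, crosslinking or proteoglycans passed, out of 8 tested. At an unadjusted p under 0.05 there was 1 of the 8, beside 5574 of all 19916 features (limma). Fbn1, fibrillin-1, the microfibril protein that also holds latent TGF-beta complexes, came closest. It read 0.72, 0.34 and 0.79 on the si-uc.323 arrays and 0.02, 0.22 and 0.19 on the si-scramble arrays, without overlap (log2 fold change 0.48, adjusted p = 0.0985). The lysyl oxidase relatives Loxl1 (0.30, adjusted p = 0.218) and Loxl2 (0.21, adjusted p = 0.431), which crosslink elastin and collagen, did not pass, and only Loxl1 had groups that did not overlap. Eln, elastin, read -0.08 (unadjusted 95% interval -0.42 to 0.27). Of the proteoglycans, Bgn (biglycan) read -0.00, Dcn (decorin) -0.03, Vcan (versican) 0.18 and Lum (lumican) 0.26. Lum and Dcn were lower on si-uc.323 replicate 2 than on any other array, at -2.37 and 0.32.

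In the TGF-beta pathway itself, the binding protein Ltbp1 rose, and no ligand, receptor or SMAD passed. Ltbp1 had levels of -1.86, -1.85 and -1.55 on the si-uc.323 arrays, against -2.49, -2.65 and -2.65 on the si-scramble arrays. Every si-uc.323 array was higher by over 0.6, and the gene was 1.80-fold higher (log2 fold change 0.85 ± 0.13, SE; adjusted p = 0.0261, limma). The difference on si-uc.323 replicate 1 alone was 0.74. Ltbp2, a relative that binds fibrillin and does not hold latent TGF-beta, read 0.49, 1.12 and 0.96 with si-uc.323 and 0.52, 0.71 and 0.57 with si-scramble, with overlap and no call (0.26, adjusted p = 0.376).

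The 3 ligands did not move as a block. Tgfb1 had levels of -4.82, -5.01 and -4.64 with si-uc.323, against -4.55, -4.31 and -4.33 with si-scramble. All si-uc.323 values were lower, yet it did not pass (log2 fold change -0.43 ± 0.14, SE; adjusted p = 0.105, limma). Tgfb1 did pass as lower after quantile normalization (-0.56, adjusted p = 0.0357), a median shift (-0.53, adjusted p = 0.0478) or cyclic loess normalization (-0.56, adjusted p = 0.0304), and on the authors' series values (-0.56, adjusted p = 0.0357). Tgfb3 read 1.83, 1.29 and 1.79 with si-uc.323 and 1.28, 1.20 and 1.31 with si-scramble. It was high on si-uc.323 replicates 1 and 3 only, and did not pass (0.37, adjusted p = 0.19). Tgfb2 had a log2 fold change of 0.20 (adjusted p = 0.268), with groups that did not overlap.

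The type I receptor Tgfbr1 read -0.05 (unadjusted 95% interval -0.53 to 0.44), with its highest level, 1.54, on si-uc.323 replicate 2. The type II receptor Tgfbr2 read 0.20 (-0.10 to 0.50). Smad2, a receptor-activated SMAD, had levels of -2.93, -3.28 and -2.85 with si-uc.323 and -3.26, -3.47 and -3.35 with si-scramble (0.34, adjusted p = 0.176), and the overlap came from si-uc.323 replicate 2. Smad7, the inhibitory SMAD that TGF-beta itself induces, read -0.20 (-0.52 to 0.12). Smad3 was above background on none of the si-uc.323 arrays and on 1 si-scramble array, so no change was computed for it.

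Among proteases and inhibitors, none of 5 genes tested passed, and 1 was higher and 1 lower at an unadjusted p under 0.05 (limma). Over all 19916 features, 5574 had such a p in either direction. Mmp14, the membrane-bound protease that activates the gelatinase Mmp2, read 4.06, 4.11 and 3.80 on the si-uc.323 arrays, against 4.31, 4.31 and 4.35 on the si-scramble arrays (log2 fold change -0.34, adjusted p = 0.13). Mmp2 read 2.22, 1.97 and 2.32 with si-uc.323 and 2.43, 2.38 and 2.45 with si-scramble (-0.25, adjusted p = 0.236). In both genes every si-uc.323 array was below every si-scramble array. The inhibitors had positive values. Timp3, which binds to the matrix, had levels of -3.21, -3.35 and -2.85 with si-uc.323, against -3.42, -3.55 and -3.53 with si-scramble (log2 fold change 0.36, adjusted p = 0.174). Timp1 read 0.11 (adjusted p = 0.581) and Timp2 0.09 (adjusted p = 0.636). Only Timp3 had groups that did not overlap. Mmp3 was above background on 2 si-uc.323 arrays and on no si-scramble array, and was not tested.

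Of the fibroblast surface proteins, Fap rose while Pdgfra and Ddr2 did not pass. Fap, fibroblast activation protein, had levels of -3.35, -3.53 and -3.11 on the si-uc.323 arrays, against -4.02, -3.98 and -4.00 on the si-scramble arrays. The gene was 1.59-fold higher with si-uc.323 (log2 fold change 0.67 ± 0.13, SE; adjusted p = 0.0398, limma), and 0.65 on replicate 1 alone. With normexp background correction it read 0.34 and did not pass (adjusted p = 0.113). Pdgfra, the platelet-derived growth factor receptor that marks resident fibroblasts, read 1.11, 0.88 and 1.13 with si-uc.323 and 1.03, 1.12 and 1.13 with si-scramble, with a log2 fold change of -0.05 (unadjusted 95% interval -0.33 to 0.22). Ddr2, a collagen receptor of fibroblasts, read 0.18 (-0.18 to 0.54). Thy1 was above background on 2 arrays of each group and was not tested.

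The cultures carried markers of several cell types on the arrays. All 10 cardiomyocyte markers were above background on all 6 arrays, and so were 7 of 7 matched fibroblast markers outside the list of 46. Of those 7 fibroblast markers, 6 had positive log2 fold changes and S100a4 a negative one, and none passed. Tcf21 read 0.55 (adjusted p = 0.354), Vim 0.47 (adjusted p = 0.132), Cthrc1 0.40 (adjusted p = 0.152), Meox1 0.21 (adjusted p = 0.30), Pdgfrb 0.12 (adjusted p = 0.484), Cd248 0.08 (adjusted p = 0.732) and S100a4 -0.18 (adjusted p = 0.318). Vim, Cthrc1 and Meox1 were higher without overlap of the groups, and S100a4 was lower without overlap. Summed on the linear scale (1 is the array's 75th percentile), the 7 came to 37.8 to 40.2 on the si-uc.323 arrays and 38.2 to 40.2 on the si-scramble arrays, of which S100a4 alone made up 22.6 to 25.4 with si-uc.323 and 26.3 to 28.7 with si-scramble. Without S100a4 the sums were 13.3 to 15.3 with si-uc.323 and 11.5 to 11.9 with si-scramble, higher and without overlap, whereas without Vim they were 30.4 to 33.4 with si-uc.323 and 33.9 to 35.5 with si-scramble. The direction of this sum therefore turned on single genes.

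The 9 tested fibroblast markers that belong to the list of 46 summed to 127 to 159 with si-uc.323 and 125 to 136 with si-scramble, and Postn and Fap rose among them. Without Col1a1, the largest part of that sum, they summed to 75.7 to 84.8 with si-uc.323 and 68.3 to 70.5 with si-scramble, without overlap. Without any other 1 of the 9 the sums overlapped. The genes listed for smooth muscle or activated fibroblasts were positive in 4 of 4, beside 52.7% of all named genes. Their median was 0.49, and none passed. Tagln read 0.63 (adjusted p = 0.0569), Myh11 0.56 (adjusted p = 0.0797), Cnn1 0.41 (adjusted p = 0.225) and Acta2 0.12 (adjusted p = 0.605). Tagln passed with normexp background correction (0.68, adjusted p = 0.0314), cyclic loess normalization (0.67, adjusted p = 0.04996) and the trended and robust prior (adjusted p = 0.0290). Myh11 passed with the mean over its probes (0.91, adjusted p = 0.0299, limma) and the trended and robust prior (adjusted p = 0.0448). These 4 genes summed to 34.4 to 41.5 with si-uc.323 and 31.9 to 36.6 with si-scramble. Without Acta2, the largest part, the sums were 5.82 to 8.36 with si-uc.323 and 4.43 to 4.52 with si-scramble, without overlap. Without any other 1 of the 4 they overlapped.

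Of the 10 cardiomyocyte markers, 5 were positive and 5 negative, and Actc1, cardiac actin, fell (log2 fold change -0.63, adjusted p = 0.0314, limma). Actc1 did not pass after quantile normalization (-0.59, adjusted p = 0.0602). Tnni3 (-0.34), Myl3 (-0.34), Ryr2 (-0.46) and Pln (-0.29) were lower without overlap of the groups, while Myh7 (0.29) and Nppa (0.17) were higher without overlap, and none of these 6 passed. The 10 summed to 256 to 277 on the si-uc.323 arrays and 295 to 306 on the si-scramble arrays. Without Actc1 the sums overlapped, at 212 to 239 with si-uc.323 and 231 to 240 with si-scramble, and without any 1 of the other 9 they did not.

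Of the 5 endothelial markers tested, 2 were positive and none passed. Kdr read -0.76 (adjusted p = 0.0680), without overlap, while Tek (0.46, adjusted p = 0.165) was higher without overlap. Tie1 was also higher without overlap but was well above background on none of the si-scramble arrays (adjusted p = 0.109), so no fold is given. Kdr passed as lower with cyclic loess normalization (-0.70, adjusted p = 0.0492) and the trended and robust prior (adjusted p = 0.0366). Kdr made up 4.70 to 7.46 of sums of 5.52 to 8.56 with si-uc.323 and 9.70 to 11.5 of sums of 11.0 to 12.4 with si-scramble, and without it the sums overlapped. Of 4 leukocyte markers, Ptprc (0.06) and Csf1r (0.14) were positive, Cd14 (-0.21) and Cd68 (-0.41, adjusted p = 0.0654) were negative, and none passed. Cd68 passed as lower with cyclic loess normalization (-0.38, adjusted p = 0.0484) and the trended and robust prior (adjusted p = 0.0388). All 6 matched leukocyte markers, the untested Itgam and Cd3e included, summed to 3.18 to 3.37 with si-uc.323 and 4.01 to 4.12 with si-scramble. The tested leukocyte markers without Cd68 summed to 0.801 to 0.911 with si-uc.323 and 0.848 to 0.862 with si-scramble, with overlap. The 4 epicardial markers summed to 2.07 to 2.43 with si-uc.323 and 2.55 to 2.98 with si-scramble, and overlapped without Msln (-0.37, adjusted p = 0.0912). The 4 mural markers summed to 3.30 to 4.66 with si-uc.323 and 3.95 to 4.14 with si-scramble, and only Rgs5 (0.42, adjusted p = 0.0908) was positive. Without Cspg4 they summed to 0.920 to 0.977 with si-uc.323 and 1.01 to 1.11 with si-scramble, without overlap. Without any other 1 of the 4 mural markers the sums overlapped. The T cell gene Cd3e was above background on 1 si-uc.323 array and on no si-scramble array. Ccnb1 and Cdk1, the matched proliferation markers, rose (1.12 and 0.59). The part of a shift in cell types or in dividing cells in the rises of the 7 genes was not tested.

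**Figure D3:**
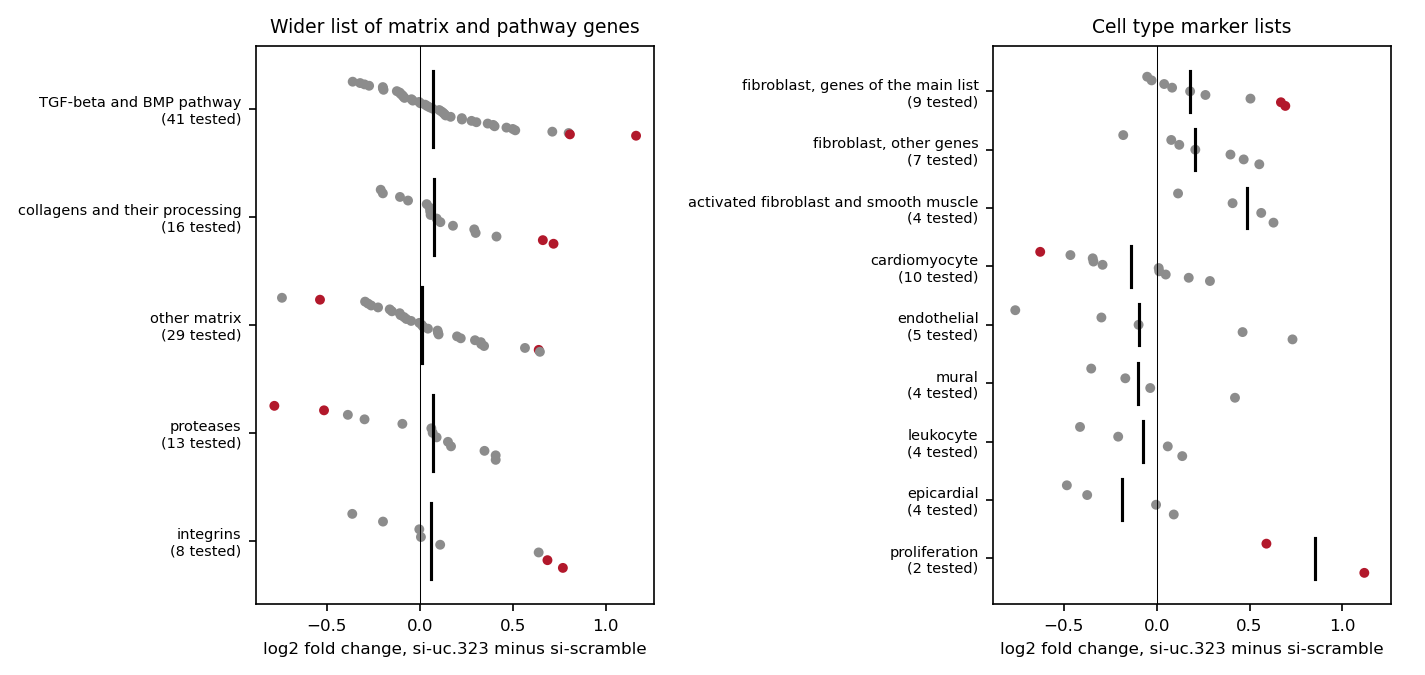
Log2 fold change, si-uc.323 minus si-scramble, of each gene tested in the wider list of matrix and pathway genes (left) and in the cell type marker lists (right). Points in red passed an adjusted p under 0.05 and black bars are list medians. The 7 fibroblast markers outside the list of 46 have a median of 0.21 and no red point, and the 10 cardiomyocyte markers a median of -0.14 with Actc1 in red.

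Differences also followed the brightness of the probe. All named genes were sorted by mean level into 5 bins of equal size, bin 1 being the dimmest. Bin 1 had a median log2 fold change of 0.12 and bin 5 one of -0.11. On si-uc.323 replicate 1 alone these medians were 0.01 and -0.08. Of the 38 genes, 17 lay in bin 5, and of those Ccn2 alone rose. Their median was -0.00, against -0.11 for all genes of that bin. In bins 2, 3 and 4 the listed genes had medians of 0.36 (6 genes), 0.42 (5 genes) and 0.26 (9 genes), against 0.12, 0.10 and -0.02 for all named genes there. Tgfb1 was the only one in bin 1.

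Where a gene had 2 probes, the dimmer read higher. In all 11 listed genes with 2 tested probes, none of which passed, the log2 fold change of the dimmer probe exceeded that of the brighter, by 0.12 to 0.92 (median 0.27). The same held in 75.6% of 1893 other named genes with several tested probes (median 0.21, brightest against second brightest). The gap was widest for Eln (dimmer probe 0.84, brighter probe -0.08) and Col4a1 (0.61 and -0.05), and it was 0.50 and 0.18 for Vcan, 0.23 and 0.04 for Col1a1 and 0.19 and -0.02 for Fn1. The values near 0 given above for these genes are those of the brighter probe. None of the 7 genes that rose had a second probe, so this reading could not be had for them. All 7 still passed after quantile normalization, which gives the arrays the same brightness distribution. They also passed after cyclic loess normalization, which evens out brightness-dependent differences between pairs of arrays. Whether the gap between dimmer and brighter probes remained after these was not tested. Fap, Tnc and Thbs2 did not pass with normexp background correction. The part of brightness in the size of the 7 rises was not tested.

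**Figure D4:**
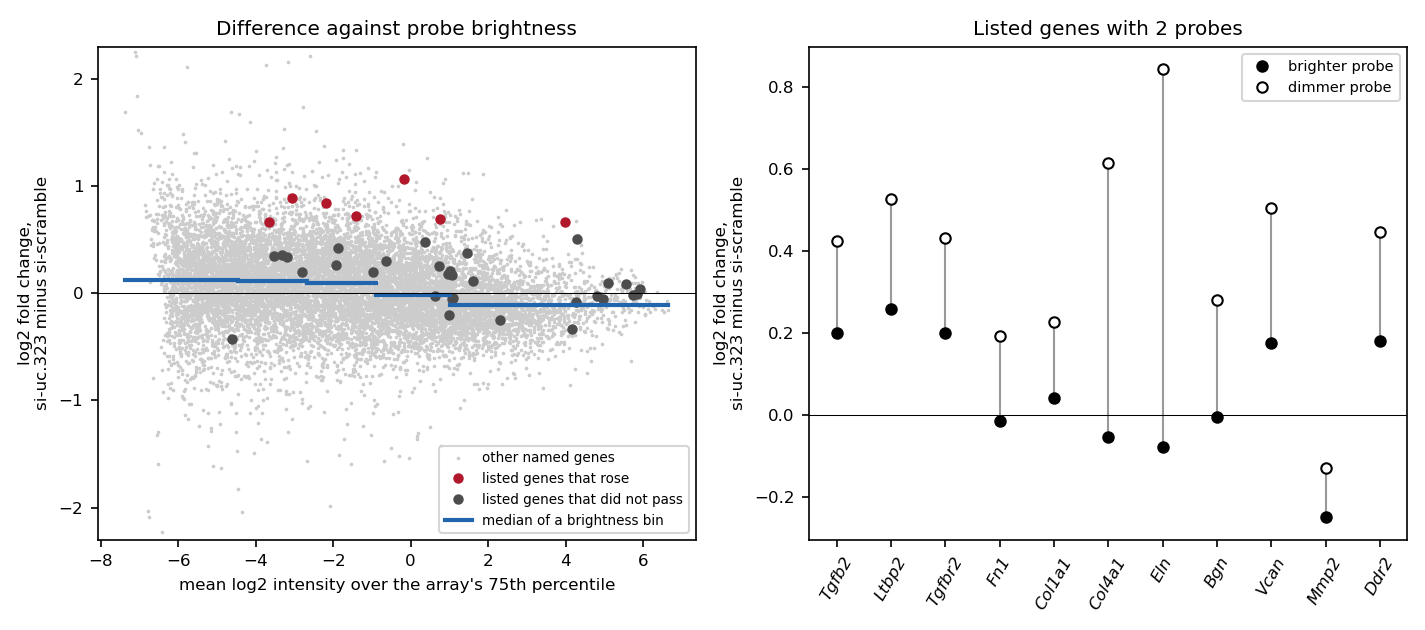
Left, log2 fold change (si-uc.323 minus si-scramble) against mean level for named genes, with listed genes that rose in red, the other listed genes tested in dark grey and the median of each of 5 brightness bins of named genes in blue; 5 genes lie beyond 2.3 on the y axis. Right, the log2 fold change of the brighter (filled) and dimmer (open) probe of the 11 listed genes with 2 probes, where the open symbol lies above the filled one in all 11.

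A wider list of 141 further genes of the same pathways and structures had 107 genes tested. Of these, 7 rose (6.54%) and 3 fell, beside 3.26% and 2.88% of all named genes. The median was 0.06, against 0.02 over all named genes. Its parts had 8 to 41 genes tested each, so their counts are descriptions and not results about the parts. In the TGF-beta and BMP pathway 2 of 41 rose (4.88%), Bmp4 among them. Bmp4, a bone morphogenetic protein, had levels of -0.23, -0.58 and -0.13 with si-uc.323 and -1.13, -1.14 and -1.10 with si-scramble, without overlap, a 1.75-fold rise (adjusted p = 0.0303, limma).

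In collagen processing 2 of 16 genes rose: P4ha1, a prolyl hydroxylase that stabilises the collagen helix (0.72 ± 0.16, SE; adjusted p = 0.0461, limma), and Col14a1, a collagen on the surface of fibrils (0.66 ± 0.14, SE; adjusted p = 0.0475, limma). Of 29 other matrix genes, Ccn3, a relative of Ccn2, rose (0.64, adjusted p = 0.0381), and Spp1, osteopontin, fell (-0.54, adjusted p = 0.0353). Among 8 integrins, the cell receptors for matrix, Itga8 (0.77, adjusted p = 0.023) and Itgb5 (0.69, adjusted p = 0.047) rose. Of 13 proteases, Mmp7 (-0.78, adjusted p = 0.0346) and Mmp15 (-0.52, adjusted p = 0.038) fell and none rose. In all 10 called genes of this list the groups did not overlap, which their selection by adjusted p on the same arrays favours. The brightest probe alone carried the calls of Mmp15 and Itgb5, which read -0.12 (adjusted p = 0.598) and 0.38 when all probes were averaged, and Spp1 did not pass after quantile normalization. The list had 4 higher and 5 lower with a median shift of the arrays, and none passed among the arrays of slide 1 or without any 1 of the si-scramble arrays.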

How the data were processed

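Cy3-labelled cRNA made from total RNA was read on Agilent arrays in a single colour, per the labels' protocols. The array design is 028282 with build rn4, per the file headers. Spots had been measured by the authors in Agilent Feature Extraction (11.0.1.1 in the submitters' processing notes). Per the file headers, the deposited intensity is linear and background-subtracted, and arrays were not brought to a common scale. The deposited series table holds log2 values with a median of 6.51 in every column; how it was centred is unknown, and it served as an alternative only.

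Control spots and outlier-flagged spots (322 to 594 of 42877 per array) were left out, the log2 intensity was shifted by the array's 75th percentile (1182 to 1775 intensity units) and spots of a probe were averaged. Probes above background (over 50% of their spots) on all arrays of a group were kept. Of 30367 probes, 18005 had 1 gene name by RefSeq accession (assembly GRCr8, names only), 0 had several and 12362 had none. Each gene was read on its brightest probe, and each unnamed probe was its own feature, giving 19916 features. Groups were compared with limma 3.58.1 in R 4.3.3 (with jsonlite 2.0.0), 2-sided, without covariates, and p-values were adjusted over all features by Benjamini-Hochberg. Errors are standard errors of the fit. The fit was tested on simulated data. The number of arrays limits the precision. Figures used matplotlib 3.10.9 in Python 3.11.15.

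The genes, lists and alternatives were chosen with earlier results of these data known. All 46 genes are accounted for, with array values for those that passed or whose groups did not overlap at an unadjusted p under 0.05, and for some others. Genes of the wider list are named where they passed, except 1 that is counted but not reported here. The alternatives were normexp background correction (offset 50, on median spot intensity), a median shift, quantile normalization, the deposited series values, other background filters, the mean over probes, a trended and robust prior, replicate and slide blocks, slide 1 alone and leaving out each array. Cyclic loess normalization, and the sums of marker lists without each marker in turn, were chosen after seeing the data.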

Additional observations from a re-analysis of the deposited data

How the results depend on the processing

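The number of features called, 1122 in the values reported, was 1833 with a trended and robust prior, 1872 with cyclic loess normalization, 660 with the replicate block, 8 with the slide as a block, and 0 both on the arrays of slide 1 (5895 features at an unadjusted p under 0.05) and without a background filter (5065 features, limma). Leaving out 1 array gave 0 to 2738: 853, 2738 and 433 without si-uc.323 replicates 1, 2 and 3, and 0, 18 and 0 without si-scramble replicates 1, 2 and 3. Of the listed genes, 7 were called higher in the values reported, 4 with the replicate block, and 0 with the slide block and without a background filter. The count was 0 to 11 when 1 array was left out. At an unadjusted p under 0.05, 10 were higher and 0 lower with the slide block, beside 3135 features in either direction (limma). Without a background filter 10 were higher and 2 lower, beside 5065 features in either direction. At an adjusted p under 0.05 no listed gene was called lower, except Tgfb1, 1 gene, with quantile, median shift or cyclic loess normalization and on the series values. The cause of these changes in the counts was not tested, and some of the fits had fewer arrays. The 7 genes that rose kept their call in 8 to 12 of the 18 alternatives each. Their sign was kept in all 18, which was given in advance for the fits on fewer arrays or with blocks. No label says that a replicate number marks a shared culture, so whether the numbers pair the samples is not known. Same-numbered arrays deviated from their group means with correlations of 0.20, 0.39 and -0.12. The replicate block lost Postn, Thbs2 and Fap (adjusted p up to 0.0599, limma). Fap, Thbs2, Tnc and Ltbp1, all below the array's 75th percentile, had their lowest log2 fold changes with normexp (0.34, 0.54, 0.58 and 0.63).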
